A study of Mus musculus with 6 samples.

Results

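The mitochondrial ribosomal protein genes were compared between mice lacking Zip13 (Zip13-KO) and wild-type (WT) littermates, in the subcutaneous fat depot of the groin known as inguinal white adipose tissue (iWAT). Members were taken by name, as the genes called Mrpl or Mrps followed by a number whose RefSeq transcripts are probed on the array. This gave 78 genes with 100 probes among the 55681 probes of the array, of which 49 are named for the large and 29 for the small subunit. Of these, 77 genes passed the filter for dim probes and were tested among 15306 named genes. Total RNA of 3 WT and 3 Zip13-KO samples, from mice 10 weeks of age, was hybridised to 1-colour Agilent mouse gene expression arrays, 1 sample per array. The mice had been backcrossed to C57BL/6J for at least 7 generations. In the Zip13-KO mice, exons 6 to 8 of the zinc transporter gene Zip13 (Slc39a13) had been replaced in the germ line by a Neo cassette in R1 embryonic stem cells, so the deletion was not limited to fat. All mice received powdered food because Zip13-KO mice have missing teeth, and the labels name a standard and a high-fat food without saying which one the mice of these arrays received. Neither the sex of the mice nor whether an array holds RNA of 1 animal or a pool is stated, so the p-values measure only the spread between these samples.

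The mitochondrial ribosome is the machine that translates the few proteins encoded by mitochondrial DNA, which are core subunits of the respiratory chain and the ATP synthase. Its ribosomal RNAs come from mitochondrial DNA, whereas its proteins are all encoded in the nucleus, made in the cytosol and imported. Some of these proteins have counterparts in bacterial ribosomes and others are specific to mitochondria, and brown and beige adipocytes, which burn fuel for heat, are rich in mitochondria.

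The values below are log2 intensities after quantile normalization, and a difference of 1 on this scale is a doubling. The labels were checked first on the deleted gene. Slc39a13 measured 11.29, 10.87 and 10.72 in WT 1 to 3 and 6.76, 6.66 and 6.47 in Zip13-KO 1 to 3, and it fell by 4.33 (SE 0.17, limma adjusted p = 0.00128). Where its probe lies relative to the deleted exons was not established. The adipocyte hormone gene Adipoq measured 16.43, 16.85 and 16.75 in WT and 17.15, 17.00 and 17.10 in Zip13-KO. It rose by 0.41 (SE 0.13, limma adjusted p = 0.0499), without overlap between the genotypes, and was not called. The share of spots well above background was 62.5% to 63.2% on the WT arrays and 58.8% to 60.4% on the Zip13-KO arrays, and the median processed signal before normalization was 39.19 to 40.60 and 33.17 to 35.02. Both measures separated the genotypes, and their part in the change of the members was not tested. No spot was saturated. The correlation between arrays was 0.9856 to 0.9933 within WT, 0.9942 to 0.9954 within Zip13-KO and 0.9601 to 0.9838 between the genotypes.

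Nearly all mitochondrial ribosomal protein genes had a higher mean in the Zip13-KO iWAT, by a small amount each. Of 77 genes, 74 had a log2 fold change above 0, against 49.9% of all genes tested, and 50 were higher at a limma adjusted p under 0.05, against 19.3% of all genes tested. The median log2 fold change was 0.34, or 1.26-fold, while the median over all genes tested was -0.00. A gene was called when it also changed by more than 1.5-fold (0.58 on the log2 scale). By that rule 8 members were called higher, near the share among all genes (10.3%), and 0 were called lower, against 8.38% of all genes. No member was lower at an adjusted p under 0.05, while 15.2% of all genes were. In these bulk samples, more cells of a type and more RNA per cell cannot be told apart.

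**Figure D1:**
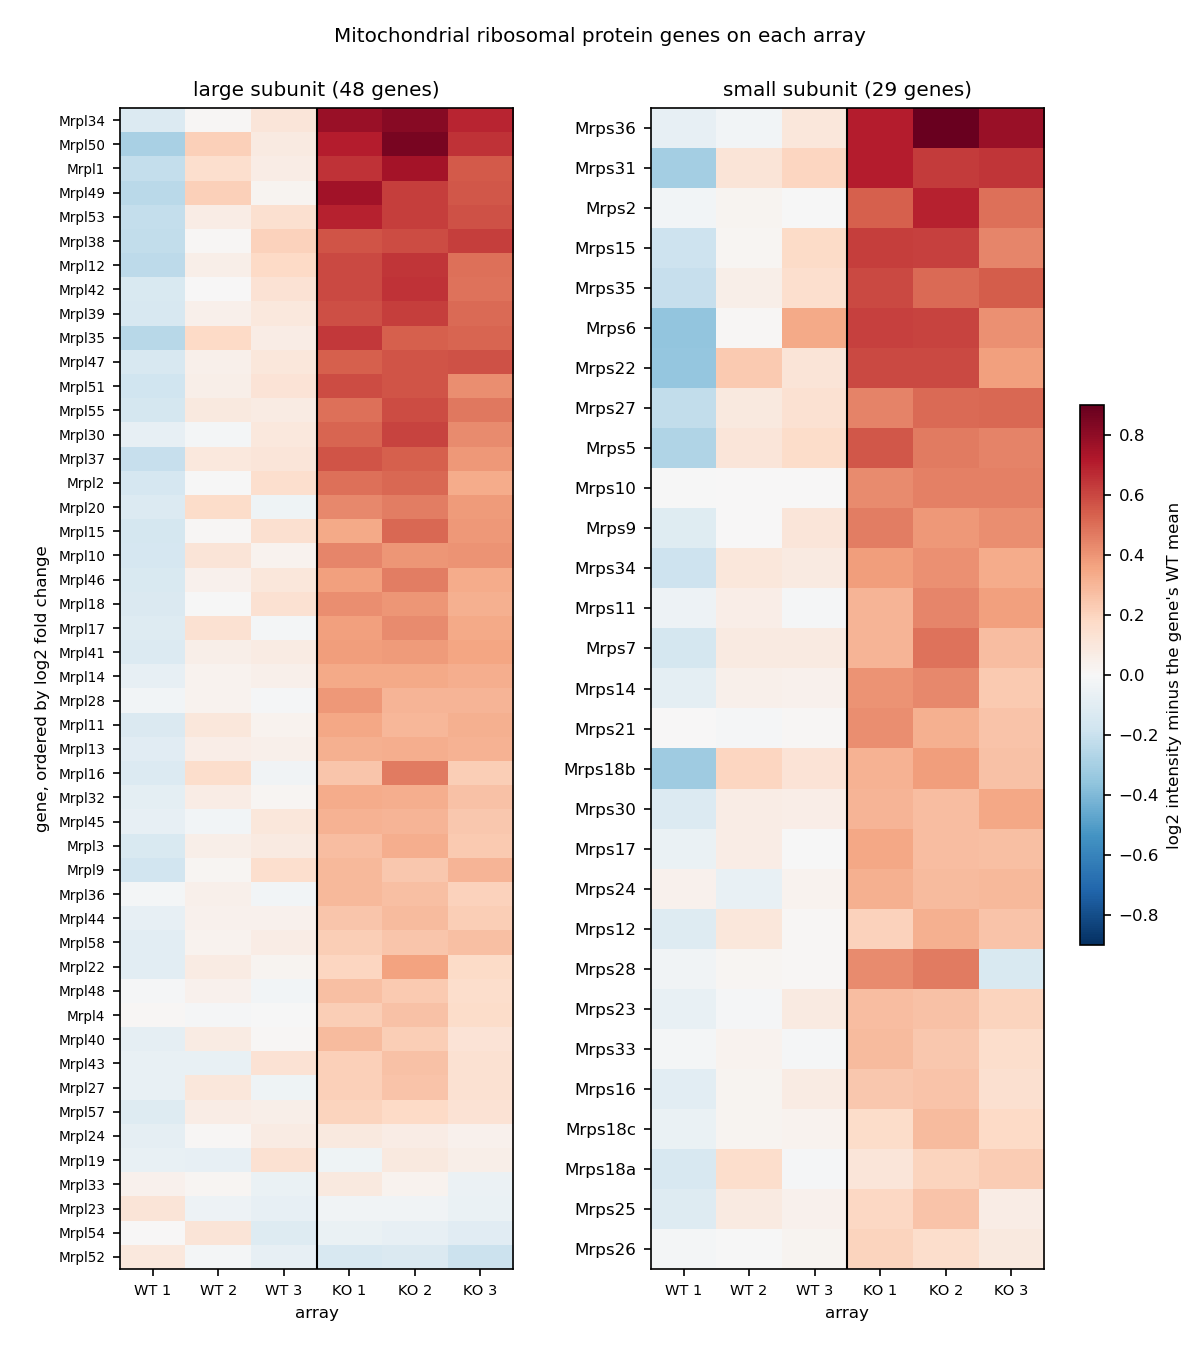
Each row is a mitochondrial ribosomal protein gene, each column an array (KO, Zip13-KO), and colour is the log2 intensity minus the mean of the 3 WT arrays for that gene. Genes of the large (48) and small (29) subunit are ordered by log2 fold change. The Zip13-KO columns are red for nearly all genes, WT 1 is the palest to bluest column, and the lowest rows of the large subunit stay near white.

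The genotypes did not overlap for most members, though the width of the gap was not measured. For 68 of 77 members, all 3 Zip13-KO arrays were above all 3 WT arrays, which held for 29.2% of all genes. For 1 member they were all below, against 25.9% of all genes, and for 8 the genotypes overlapped. Some gaps were narrow: the highest WT array of Mrpl43 was at 13.087 and its lowest Zip13-KO array at 13.096. Of the 27 members that did not pass the adjusted p, 18 had all Zip13-KO arrays above all WT arrays. The spread within a genotype was small. The median SD over members was 0.11 for WT and 0.06 for Zip13-KO arrays, against 0.16 and 0.10 over all genes. For 64 members the 95% confidence interval of the log2 fold change lay above 0. These intervals were not adjusted for the number of genes, and the corresponding share over all genes was not computed. WT 1 was the lowest of the WT arrays for 66 of 77 members, while Zip13-KO 3 was the highest Zip13-KO array for only 7.

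The subunits had close medians. Among the 48 large subunit genes, 45 had a log2 fold change above 0, 32 were higher at the adjusted p and 6 were called. Among the 29 small subunit genes the corresponding counts were 29, 18 and 2. Of all genes tested, 49.9% had a change above 0, 19.3% were higher at the adjusted p and 10.3% were called higher. The median log2 fold change was 0.33 for the large and 0.36 for the small subunit, with quartiles of 0.24 to 0.52 and 0.25 to 0.49. Per array, the median deviation of the large subunit genes from their WT means was -0.12, 0.05 and 0.07 in WT 1 to 3 and 0.35, 0.37 and 0.32 in Zip13-KO 1 to 3. For the small subunit it was -0.11, 0.05 and 0.06 in WT and 0.38, 0.41 and 0.29 in Zip13-KO. On every Zip13-KO array both medians were above those of every WT array. The names do not always match the place in the assembled ribosome. With Mrps18a and Mrps30, which sit in the large subunit, counted there and Mrps36 left out, the medians were 0.33 (50 genes) and 0.36 (26 genes).

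Proteins with and without a bacterial counterpart gave close medians as well. In the large subunit, the 28 tested genes with a bacterial counterpart had a median of 0.33 with 2 called, and the 19 mitochondria-specific genes a median of 0.37 with 4 called. In the small subunit, 16 genes with a counterpart had a median of 0.36 with 0 called and 11 higher at the adjusted p, and 10 mitochondria-specific genes a median of 0.34 with 1 called. Mrpl55, Mrps18a, Mrps18b and Mrps36 were put in neither class, so Mrps18c alone of the Mrps18 genes was counted as having a counterpart. Subunits were taken by name here, which places Mrps30 in the small subunit. Of all genes tested, 10.3% were called higher and 19.3% were higher at the adjusted p, and called counts this small say little about a class. The difference between these classes was not tested.

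**Figure D2:**
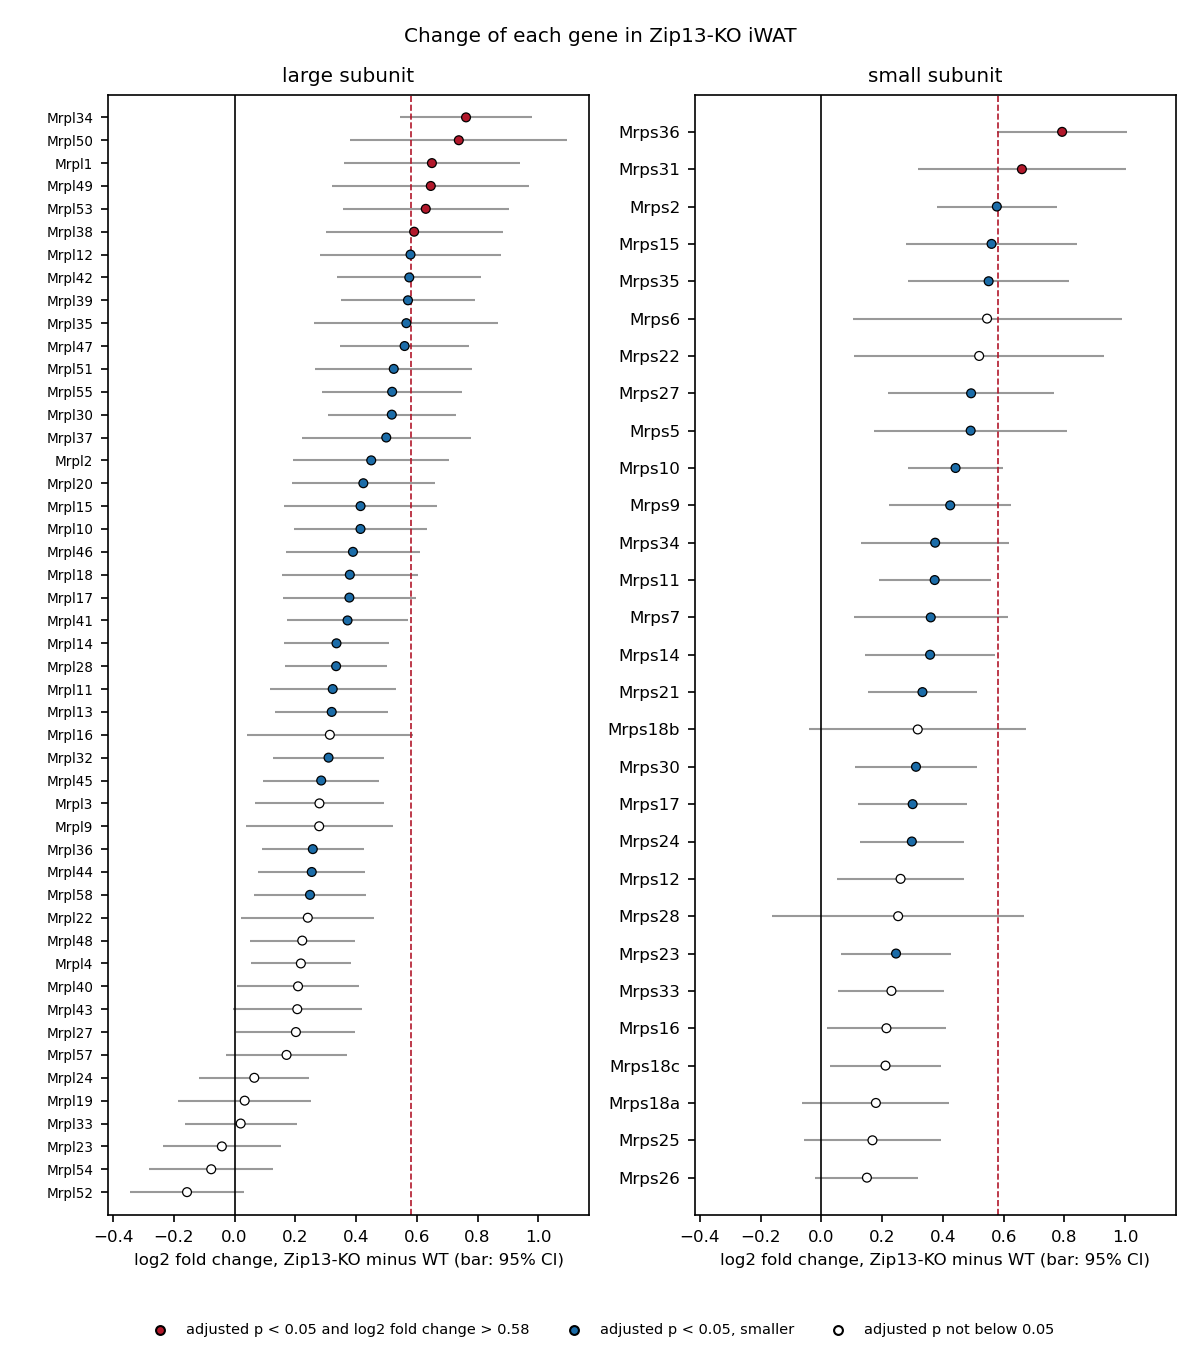
The log2 fold change (Zip13-KO minus WT) of each tested gene is a point and its 95% confidence interval a bar, for the large subunit (left) and the small subunit (right). The dashed line is the fold threshold of 0.58. Red points (6 and 2) passed both thresholds, blue points passed the adjusted p alone and white points did not pass it.

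Among large subunit genes, Mrpl34, which encodes the counterpart of a bacterial 50S protein, had the largest change. It measured 11.30, 11.44 and 11.53 in WT and 12.20, 12.24 and 12.11 in Zip13-KO, a rise of 0.76 (SE 0.09, 95% confidence interval 0.54 to 0.98, adjusted p = 0.00548). The lowest Zip13-KO array was well above the highest WT array. Mrpl50, a mitochondria-specific protein, measured 10.24, 10.75 and 10.62 in WT and 11.25, 11.39 and 11.19 in Zip13-KO, a rise of 0.74 (SE 0.15, adjusted p = 0.0145). Its WT arrays spread more (SD 0.26), with WT 1 the lowest, but the genotypes did not overlap. Mrpl1, the counterpart of the protein that forms a mobile stalk of the bacterial large subunit, measured 7.59, 7.96 and 7.88 in WT and 8.46, 8.56 and 8.36 in Zip13-KO, a rise of 0.65 (SE 0.12, adjusted p = 0.0122). Mrpl49, a mitochondria-specific protein, measured 10.33, 10.79 and 10.60 in WT and 11.32, 11.19 and 11.13 in Zip13-KO, a rise of 0.65 (SE 0.13, adjusted p = 0.016). In both, WT 1 was the lowest array and WT 2 the highest of its genotype, and neither was called without WT 1 (0.54 and 0.52). Mrpl1 was also below the fold threshold with normexp correction (0.46), without background correction (0.52) and in the deposited table (0.52). The other genes called were the mitochondria-specific Mrpl53 (0.63, adjusted p = 0.0113) and Mrpl38 (0.59, adjusted p = 0.0152), again without overlap. Neither was called without WT 1. Mrpl38 also lost its call without any single Zip13-KO array, with normexp correction, without background correction and in the deposited table. Mrpl50 was not called without Zip13-KO 1 or Zip13-KO 2 (limma adjusted p = 0.053 and 0.0554).

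At the lower end, a few large subunit genes had changes near or below 0. Mrpl52, a mitochondria-specific protein, measured 13.64, 13.53 and 13.47 in WT and 13.41, 13.42 and 13.35 in Zip13-KO, a log2 fold change of -0.16 (SE 0.08, 95% confidence interval -0.34 to 0.03, adjusted p = 0.16). It was the member with all Zip13-KO arrays below all WT arrays, though it did not pass the test. Mrpl54, also mitochondria-specific, measured 12.38, 12.49 and 12.26 in WT and 12.32, 12.31 and 12.28 in Zip13-KO (-0.08, adjusted p = 0.504). Mrpl23, whose bacterial counterpart lies at the exit of the peptide tunnel, measured 12.97, 12.81 and 12.78 in WT and 12.82, 12.82 and 12.79 in Zip13-KO (-0.04, adjusted p = 0.709). In these genes the genotypes overlapped, and the upper ends of their intervals, 0.13 and 0.15, were below the median change of the large subunit. Mrpl33, the counterpart of a bacterial 50S protein, measured 14.46, 14.44 and 14.37 in WT and 14.51, 14.46 and 14.37 in Zip13-KO (0.02, 95% confidence interval -0.16 to 0.20, adjusted p = 0.853). The sign of Mrpl54, Mrpl23 and Mrpl33 changed under some settings: with each array scaled to its 75th percentile, Mrpl23 was at 0.068 and Mrpl54 at 0.016, and Mrpl33 was at -0.0089 without WT 3 and at -0.012 without Zip13-KO 1. Mrpl24 and Mrpl19 also overlapped. Mrpl21 had a single probe, which was not well above background on any array, and was not tested.

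Among small subunit genes, Mrps36 had the largest change of all members. Its product, also known as KGD4, is a component of the 2-oxoglutarate dehydrogenase complex of the TCA cycle, to which it binds the E3 subunit, and in mammalian ribosome structures it is not a ribosomal protein. It measured 11.57, 11.62 and 11.75 in WT and 12.36, 12.54 and 12.42 in Zip13-KO, a rise of 0.79 (SE 0.09, 95% confidence interval 0.58 to 1.01, adjusted p = 0.00515). Mrps31, a mitochondria-specific protein, measured 10.74, 11.16 and 11.24 in WT and 11.76, 11.67 and 11.69 in Zip13-KO, a rise of 0.66 (SE 0.14, adjusted p = 0.0177). These were the only small subunit genes called, with WT 1 the lowest array for both. Mrps31 was not called without WT 1 (0.51) or without any one Zip13-KO array (adjusted p = 0.0521 to 0.0657). Mrps2, the counterpart of bacterial S2, measured 9.62, 9.67 and 9.64 in WT and 10.18, 10.34 and 10.14 in Zip13-KO. Its change of 0.58 (SE 0.08, adjusted p = 0.00709) fell just short of the fold threshold before rounding. Mrps15, the counterpart of bacterial S15, rose by 0.56 (SE 0.12, adjusted p = 0.0161), also without overlap.

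Members near the fold threshold lay on both sides of it. Mrpl38 was just inside at 0.59. Just outside were Mrpl12, which forms the stalk that recruits translation factors, at 0.58, and Mrpl42, Mrpl39 and Mrps2, between 0.57 and 0.58. Mrps6 and Mrps22 had changes of 0.55 and 0.52 and did not pass the test (adjusted p = 0.0618 and 0.0577), although their genotypes did not overlap. Both had a wide WT spread (SD 0.35 and 0.31) with WT 1 the lowest array. These genes, other than Mrpl38 and Mrps2, were singled out after their values were seen. In all, 42 members passed the adjusted p without passing the fold threshold, and 27 did not pass the adjusted p, of which 24 had a log2 fold change above 0.

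The small subunit genes with the lowest changes still had a positive one. Mrps26, a mitochondria-specific protein, measured 12.99, 13.01 and 13.03 in WT and 13.21, 13.17 and 13.10 in Zip13-KO (0.15, SE 0.07, adjusted p = 0.141). Its genotypes did not overlap, though the change did not pass the test. Mrps25, another mitochondria-specific protein, measured 11.54, 11.75 and 11.70 in WT and 11.85, 11.92 and 11.72 in Zip13-KO (0.17, SE 0.09, adjusted p = 0.199), and Zip13-KO 3 lay below WT 2. In Mrps28, named after its values were seen, the overlap came from a single array. It measured 12.16, 12.21 and 12.20 in WT and 12.62, 12.66 and 12.06 in Zip13-KO, with Zip13-KO 3 below the WT arrays.

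The paralogs Mrps18a, Mrps18b and Mrps18c all derive from bacterial S18, and each is built into a different position of the mitochondrial ribosome. None of them passed the test. Mrps18a measured 11.90, 12.20 and 12.04 in WT and 12.15, 12.24 and 12.27 in Zip13-KO (0.18, SE 0.10, adjusted p = 0.202), with overlap. Mrps18b measured 12.24, 12.76 and 12.69 in WT and 12.87, 12.94 and 12.82 in Zip13-KO (0.32, SE 0.15, adjusted p = 0.139). Mrps18c measured 12.32, 12.41 and 12.41 in WT and 12.54, 12.67 and 12.56 in Zip13-KO (0.21, SE 0.07, adjusted p = 0.0722). For Mrps18b and Mrps18c all Zip13-KO arrays were above all WT arrays, and the 95% confidence interval of Mrps18c, 0.03 to 0.39, lay above 0.

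A second probe gave a check within the gene for 22 members. For 21 of them both probes had the same sign, and the median absolute difference between their log2 fold changes was 0.15, the largest being 0.25. Mrps25 was the exception, with 0.17 on its brighter and -0.02 on its other probe. Mrps36 was called on both of its probes (0.79 and 0.62). Mrpl50 and Mrpl49 were called on the brighter probe, and their other probes, each at 0.50, passed the adjusted p but not the fold threshold. Mrpl39 and Mrpl47, named after their values were seen, were the reverse: their brighter probes measured 0.57 and 0.56 and were not called, while the other probes, at 0.82 and 0.73, were. The other probe of Mrps18b reached an adjusted p of 0.0496 with a change of 0.44. The call at the fold threshold therefore depended on the probe for 4 genes, and the direction for 1. In the limma fit over probes, passing the adjusted p alone depended on the probe for more genes. Mrpl10, Mrpl15, Mrpl41 and Mrps14 passed it on the brighter probe only, with other probes at an adjusted p of 0.0512 to 0.276. Mrpl22, Mrpl27, Mrpl4, Mrpl40, Mrps18b, Mrps23 and Mrps33 passed it on the other probe only, with brighter probes at 0.0508 to 0.14.

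**Figure D3:**
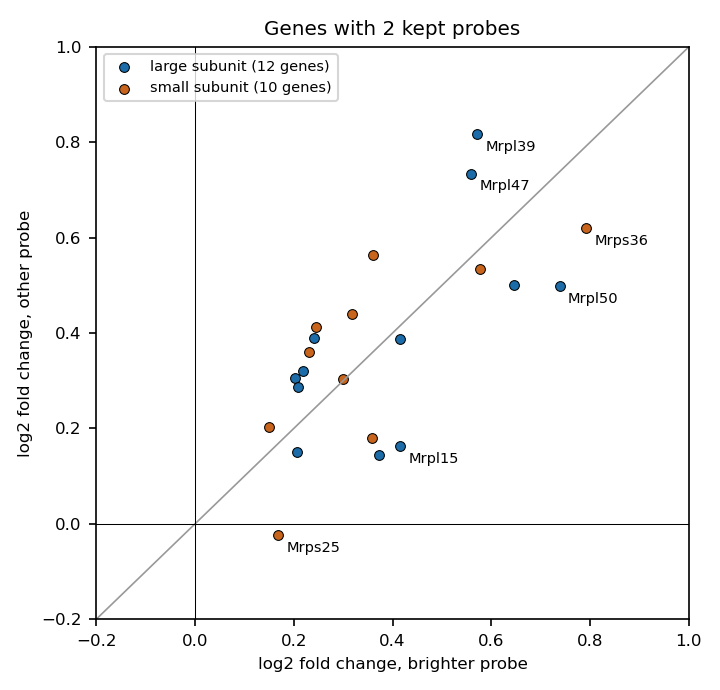
Each point is a gene with 2 kept probes, placed by the log2 fold change (Zip13-KO minus WT) of its brighter probe (horizontal) and its other probe (vertical), with blue for the large and orange for the small subunit. The grey line marks equal values. Of 22 genes, Mrps25 alone has probes of opposite sign.

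Since the members moved together, the sequences before their transcription starts were read for the motifs of factors known for nuclear-encoded mitochondrial genes. RefSeq windows (GRCm38.p6, 250 bases before to 50 after the start) were at hand for 69 members, 75 windows in all. The windows of 1 chromosome were left out of all counts, and those of genes tested covered 12120 of the 15306 genes. Exact matches were sought on both strands for NRF1 (GCGC on each side of an A and any base), ETS family factors including GABP (CCGGAAGT), YY1 (AANATGGCG) and the ERR receptors (TCAAGGTCA). An NRF1 match was in 17.3% of member windows, against 8.29% of windows of genes tested and 4.6% of all windows. An ETS match was in 16%, against 6.73% and 3.89%, and a YY1 match in 14.7%, against 4.15% and 2.38%. No member window held an exact ERR match, which 0.274% of windows of genes tested had. At least 1 of the motifs was in 44% of member windows, against 17.8% of those of genes tested, in 47.9% of large and 37% of small subunit windows. No member window had matches of different motifs that overlapped. The promoters of the gene with the highest log2 fold change of each subunit (Mrpl34 and Mrps36) and of that with the lowest (Mrpl52 and Mrps26) are shown so that they can be compared, 5′ to 3′ along the gene, with motif matches in capitals. They lie at chr8:71464676-71464975 (Mrpl34, plus strand), chr13:100744610-100744909 (Mrps36, minus strand), chr14:54426659-54426958 (Mrpl52, plus strand) and chr2:130563507-130563806 (Mrps26, plus strand).
Mrpl34: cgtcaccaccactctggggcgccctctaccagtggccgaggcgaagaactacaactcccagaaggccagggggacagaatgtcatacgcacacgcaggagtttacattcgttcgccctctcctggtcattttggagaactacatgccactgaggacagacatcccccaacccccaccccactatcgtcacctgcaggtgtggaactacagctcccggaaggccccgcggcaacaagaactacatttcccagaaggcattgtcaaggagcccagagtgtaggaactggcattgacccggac
Mrps36: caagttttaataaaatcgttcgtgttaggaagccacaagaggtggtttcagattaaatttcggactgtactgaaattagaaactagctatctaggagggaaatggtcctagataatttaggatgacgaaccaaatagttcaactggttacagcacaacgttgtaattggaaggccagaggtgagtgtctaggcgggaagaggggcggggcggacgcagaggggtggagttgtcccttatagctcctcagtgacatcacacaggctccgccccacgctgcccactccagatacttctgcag
Mrpl52: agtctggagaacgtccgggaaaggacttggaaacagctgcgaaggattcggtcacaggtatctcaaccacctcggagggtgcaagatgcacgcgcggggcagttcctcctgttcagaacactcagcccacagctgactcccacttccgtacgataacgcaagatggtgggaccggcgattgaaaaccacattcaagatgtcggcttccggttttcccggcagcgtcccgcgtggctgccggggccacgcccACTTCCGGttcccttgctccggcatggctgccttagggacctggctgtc
Mrps26: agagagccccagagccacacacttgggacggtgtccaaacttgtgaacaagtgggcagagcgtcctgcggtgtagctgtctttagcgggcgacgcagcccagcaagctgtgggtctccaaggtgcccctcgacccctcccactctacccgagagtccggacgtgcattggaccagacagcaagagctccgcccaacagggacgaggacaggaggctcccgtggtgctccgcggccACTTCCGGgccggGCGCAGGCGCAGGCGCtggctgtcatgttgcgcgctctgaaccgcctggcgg

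The windows of Mrpl34 and Mrps36 had no match to any of these motifs. That of Mrpl52 had an ETS match near the start, on the opposite strand. That of Mrps26 had an ETS match, also on the opposite strand, followed by a pair of NRF1 matches that overlap each other. Over all members with a window, the median log2 fold change was 0.31 for the 33 genes with a match (from -0.16 to 0.58) and 0.39 for the 35 without (from -0.04 to 0.79). The called members with a window were all among these 35, and Mrpl38 had no window. Of the windows of genes tested, 17.8% held a match, so most windows have none. With an ETS match the median was 0.22 (12 genes) and without it 0.37 (56 genes). These are descriptions with no test, and a match of letters is not evidence of binding.

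Other genes of mitochondrial translation also had mostly positive changes. For these and the later lists, 49.9% of all genes tested had a change above 0. At the adjusted p, 19.3% of all genes were higher and 15.2% lower, while 10.3% were called higher and 8.38% lower. Of 5 mitochondrial ribosomal proteins that carry other names, all had a change above 0 with a median of 0.20, none was called, and Ptcd3 (0.41, adjusted p = 0.0424) and Chchd1 (0.30, adjusted p = 0.0412), both of the small subunit, passed the adjusted p. Dap3, a GTP-binding protein of the small subunit, was lowest at 0.07. Of 23 tested assembly factors, 22 had a change above 0, 13 were higher at the adjusted p and 5 were called, with a median of 0.35. The genes called were the ribosomal RNA methyltransferases Mrm2 (0.69) and Mettl15 (0.66), the GTPase Mtg1 (0.65), Mterf4 (0.63), which brings a methyltransferase to the large subunit, and Ybey (0.61), an endoribonuclease. The pseudouridine synthase gene Rpusd4 was lowest at -0.01, and Fastkd2 did not pass the filter.

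The 15 translation factors had a median change of 0.40, with 14 above 0, 9 higher at the adjusted p and 3 called. The ribosome recycling factor gene Gfm2 measured 9.83, 10.33 and 10.30 in WT and 10.90, 10.98 and 10.90 in Zip13-KO, a rise of 0.78 (adjusted p = 0.0129). Taco1, a translational activator of COX1, rose by 0.72 (adjusted p = 0.023), and the elongation factor gene Gfm1 by 0.68 (adjusted p = 0.0147). The initiation factor gene Mtif2 was lowest at -0.01. Among 20 genes for charging mitochondrial tRNAs, 19 were above 0 and 9 were higher at the adjusted p, with a median of 0.30. Of the 20, 2 were called, near the share among all genes (10.3%). Those called were Gatb (0.78), a subunit of the glutamyl-tRNA amidotransferase, and Iars2 (0.74), the isoleucyl-tRNA synthetase. The tryptophanyl-tRNA synthetase gene Wars2 was lowest at -0.19.

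Changes were uneven among the 7 genes of mitochondrial transcription. The elongation factor gene Tefm measured 7.04, 7.51 and 7.41 in WT and 8.17, 8.17 and 8.10 in Zip13-KO, a rise of 0.82 (adjusted p = 0.00911), and the initiation factor gene Tfb2m rose by 0.76 (adjusted p = 0.00584). The DNA-packaging factor gene Tfam (0.13, adjusted p = 0.154) and the polymerase gene Polrmt (0.14, adjusted p = 0.244) did not pass the test, and Mterf1a was lowest at 0.04. The median of the list was 0.15.

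Set beside other proteins of translation and respiration, the members lay between groups that moved in opposite directions. Of 83 tested nuclear-encoded subunits of the respiratory chain and ATP synthase, 56 were called higher and 75 passed the adjusted p, with a median log2 fold change of 0.67. Of 79 cytosolic ribosomal protein genes, none had a change above 0, 38 were lower at the adjusted p, none passed the fold threshold and the median was -0.23. The interquartile range of the members, 0.25 to 0.52, reached neither median. No test was made of the difference between these lists.

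**Figure D4:**
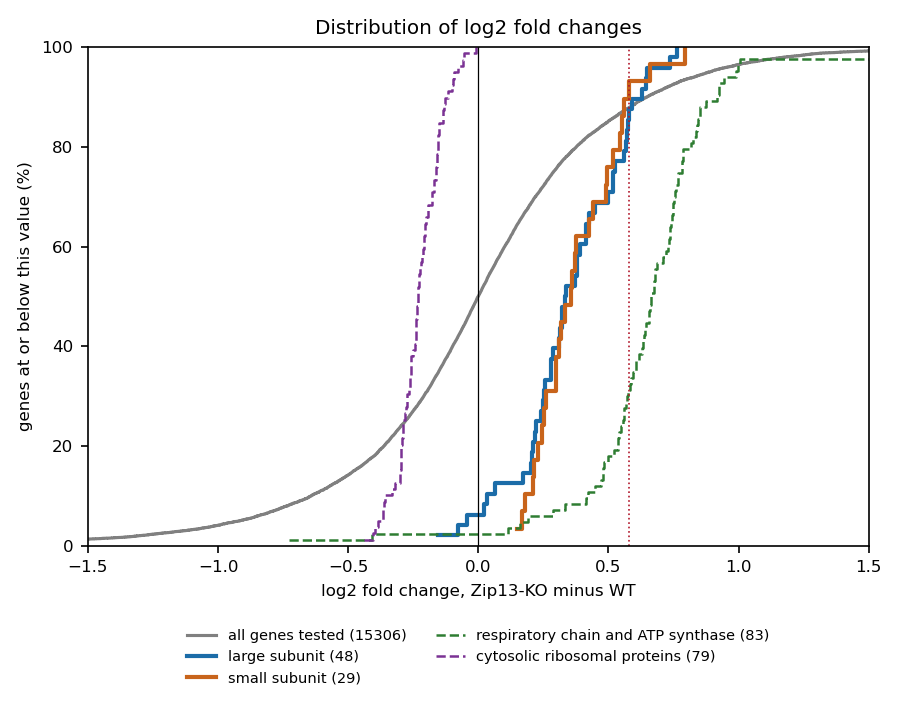
Cumulative share of genes (vertical, percent) at or below each log2 fold change (horizontal, Zip13-KO minus WT, shown from -1.5 to 1.5) for the large and small subunit genes, all genes tested, respiratory chain and ATP synthase subunits, and cytosolic ribosomal proteins. The subunit curves run together, with medians of 0.33 and 0.36, between those of the cytosolic ribosomal proteins (-0.23) and the respiratory chain (0.67). The dotted line is the fold threshold.

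Markers of several cell types moved with the genotype, and of all genes tested 10.3% were called higher and 8.38% lower. Of 10 adipocyte markers, 4 were called higher (Plin1, Lipe, Pparg and Slc2a4, median of the list 0.67), and their summed level, on the log2 scale, was 19.06 to 19.42 in WT and 19.59 to 19.65 in Zip13-KO. Of 12 brown and beige adipocyte markers, 10 were called higher (median 1.96), with summed levels of 15.50 to 16.26 and 17.61 to 18.11. The heat-producing uncoupling protein gene Ucp1 measured 10.68, 8.20 and 9.42 in WT and 13.19, 15.50 and 15.07 in Zip13-KO. Of 10 macrophage markers, 7 were called lower (median -1.12), with summed levels of 16.13 to 16.78 and 15.14 to 15.45. Of 9 stromal markers, 3 were called lower (Pdgfra, Dpp4 and Ly6a, median of the list -0.71), with summed levels of 17.36 to 18.40 and 17.14 to 17.38.

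WT 1, the lowest WT array for most members, was also the WT array with the lowest adipocyte (-0.39) and the highest macrophage (0.36) and stromal (0.46) median deviations. Among Zip13-KO 1 to 3, the brown and beige medians were 1.63, 2.19 and 1.88, beside the large subunit medians of 0.35, 0.37 and 0.32. Zip13-KO 2 was the highest in both lists, but the lowest was Zip13-KO 1 for the brown and beige markers and Zip13-KO 3 for the large subunit. The adipocyte medians were 0.71, 0.63 and 0.67, with Zip13-KO 2 the lowest. All 12 lymph node markers had a change below 0 (median -0.40), for 8 of them all Zip13-KO arrays were below all WT arrays, and their summed levels were 16.16 to 16.45 in WT and 15.70 to 15.88 in Zip13-KO. Of 8 endothelium markers, 2 were called higher (Cdh5 and Cldn5), with summed levels of 13.81 to 13.91 in WT and 14.15 to 14.27 in Zip13-KO. Of 11 tested muscle markers, 1 was called higher (Myl1), near the share among all genes (10.3%). Their summed levels were 12.60 to 13.28 in WT and 13.39 to 14.23 in Zip13-KO, with Zip13-KO 3 at a median deviation of 2.01. None of 7 tested mammary epithelium markers was called, at 7.69 to 9.25 and 7.70 to 9.32, with Krt8, Elf5 and Wap not passing the filter. The part of the cell type makeup in the change of the members was not tested.

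**Figure D5:**
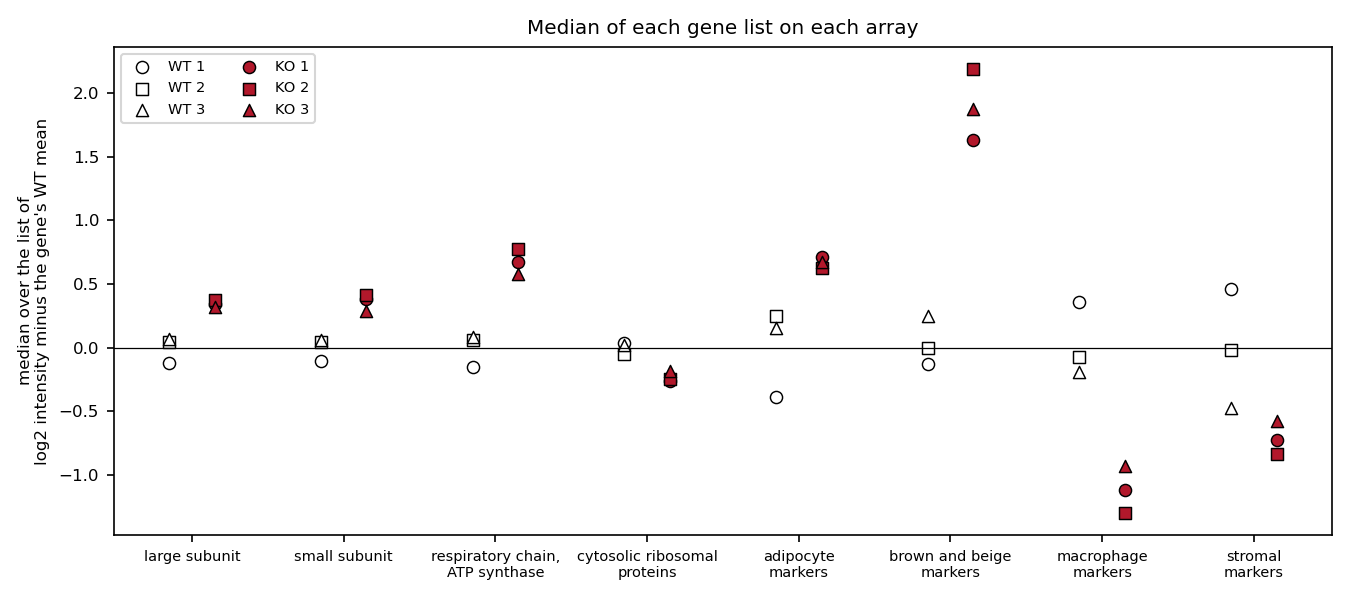
Each point is 1 array (open, WT; red, Zip13-KO, labelled KO), and its height is the median, over a gene list, of the log2 intensity minus the mean of the WT arrays for each gene. Large subunit medians are -0.12 to 0.07 in WT and 0.32 to 0.37 in Zip13-KO, far closer together than those of the brown and beige markers (1.63 to 2.19 in Zip13-KO).

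The counts of members past a threshold depended on single arrays, and the median moved less. Without WT 1, 3 members were called and the median was 0.31. Without WT 2 or WT 3, 14 and 17 were called, and without Zip13-KO 1 or Zip13-KO 2, 5 and 4. At the adjusted p alone the count was 50 with all arrays and 12, 10 and 24 without Zip13-KO 1, 2 and 3. The median stayed between 0.31 and 0.38 in these fits, and 73 to 75 of 77 members were above 0. All 6 arrays were on 1 slide, with the WT arrays and Zip13-KO 1 in its first column and Zip13-KO 2 and 3 in the second. With the slide column as a block, the estimate rests on Zip13-KO 1 against the WT arrays, 73 members were above 0 with a median of 0.35, and neither these nor any other gene was called higher. With 3 against 3, the smallest two-sided p of an exact permutation test of a single value is 0.1.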

How the data were processed

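Total RNA of iWAT from WT and Zip13-KO mice was measured on 1-colour arrays, 3 per genotype, whose number limits the precision. The deposited scanner files, made by the authors with Feature Extraction 11.5.1.1, give a processed signal per spot as an intensity, corrected for background but not normalized between arrays. The authors' deposited value table is in log2 units. By comparison with the scanner files it follows the median signal without background correction, quantile normalized. It served as an alternative.

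The processed signal was taken as log2 without control and outlier spots, spots of a probe were averaged, and arrays were quantile normalized. A probe was kept when every array of either genotype had it well above background. Of 55681 probes, 28331 were named through their RefSeq accession (GRCm38.p6), and each gene was represented by its brightest probe. Genes were compared with limma 3.58.1 in R 4.3.3 (statmod 1.5.0), with Benjamini-Hochberg adjustment over 15306 genes, and called at an adjusted p under 0.05 and a log2 fold change beyond 0.58, the thresholds of the study's methods. The fit was tested on simulated data.

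The genes named with values are, in each subunit, the 4 members with the largest and the 4 with the lowest change, the Mrps18 paralogs, members whose probes differ in sign or that had no kept probe, and, from each list of translation genes, the called members and the lowest one. Names beyond this rule were chosen after their values were seen. The lists of respiratory chain subunits and cytosolic ribosomal proteins, and the promoter motifs, were added last. The members and lists were chosen with earlier results of these data known. No gene list was tested as a set. The calls of 1 marker list are not reported here. The array design was annotated on another assembly, so positions are given only for RefSeq promoter windows. Alternatives were other normalization, background correction, filters, thresholds, probe and subunit rules, a t-test named in the methods, blocks for replicate number and slide column, and leaving out each array.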

Additional observations from a re-analysis of the deposited data

How the results depend on the processing

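The medians of the large and small subunit genes were above 0 under every alternative, from 0.30 to 0.43 for the large and from 0.31 to 0.42 for the small subunit, and 0 members were called lower in any of them. The large subunit median moved beyond its spread when arrays were scaled to their 75th percentile (0.43), where 13 large and 6 small subunit genes were called and the median over all genes was 0.03. With the slide column as a block, 0 large and 0 small subunit genes were called or past the adjusted p, and over all genes 0 were called higher and 7 lower. That fit has fewer arrays behind its estimate. Dropping the fold threshold gave 32 large and 18 small subunit genes, and an adjusted p under 0.01 gave 1 and 1. The study's methods combine a t-test with a median-ratio test, and only a t-test was run here. By this t-test, and with subunits assigned by structure, 1 small subunit gene was called. The cause of these moves was not tested, except that the last comes from leaving out Mrps36.

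Leaving out 1 array at a time gave 2 to 12 large and 1 to 5 small subunit genes called, and 7 to 28 large and 3 to 17 small subunit genes past the adjusted p alone. The medians were then 0.30 to 0.38 and 0.31 to 0.40. The replicate numbers shared by the genotypes gave no sign of a pairing. Deviations of same-numbered arrays from their genotype means correlated at -0.02, 0.04 and -0.08, and the arrays did not correlate best with their own number. With 3 arrays per genotype, these correlations cannot exclude that the samples were paired. With the replicate number as a block, 10 large and 7 small subunit genes passed the adjusted p and 7 members were called.

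Of 19 alternatives, Mrpl34 and Mrps36 were called in 18, Mrpl53 in 16, Mrpl50 in 15, Mrpl1 in 13, Mrpl49 and Mrps31 in 12 and Mrpl38 in 10. The replicate block took the call from Mrpl49 (adjusted p = 0.0513). Signs reversed for Mrpl23 and Mrpl54 by 75th percentile scaling (0.068 and 0.016). Leaving out 1 array gave -0.012 to 0.058 for Mrpl33, below 0 without WT replicate 3 or Zip13-KO replicate 1, and -0.078 to 0.017 for Mrpl23, above 0 without WT replicate 1. No mean signal is used here, so normexp correction, with an offset of 50, started from the median signal. On arrays, signal over background sets the limit, and of all members Mrpl21 alone was not well above background.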

Other observations

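Of 12 regulators known for activating nuclear mitochondrial genes, 5 were called higher and 0 lower. Ppargc1b, a PGC-1 family coactivator, measured 6.47, 6.93 and 6.96 in WT and 8.03, 8.33 and 7.56 in Zip13-KO, a rise of 1.19 (SE 0.23, limma adjusted p = 0.0137). Its relative Ppargc1a measured 8.55, 8.47 and 8.51 in WT and 9.56, 9.93 and 9.35 in Zip13-KO, a 2.14-fold rise (SE 0.15 on the log2 scale, adjusted p = 0.00695). Esrrg (1.15), Esrra (0.73) and Esrrb (0.65), which encode the estrogen-related receptors, also rose. None of the 75 member promoter windows held their exact motif. Only 0.274% of windows of genes tested had it, so its absence from so few windows is uninformative. The genes of the factors whose motifs were found there gave other values. Nrf1 measured 9.80, 9.85 and 9.93 in WT and 9.51, 9.59 and 9.68 in Zip13-KO (-0.26, adjusted p = 0.0502), lower on every Zip13-KO array without passing the test. Of the GABP subunit genes, Gabpa rose by 0.29 (adjusted p = 0.0381), while Gabpb1 fell by 0.23 (adjusted p = 0.0491) and Gabpb2 fell by 0.37 (adjusted p = 0.041). Pprc1, the third PGC-1 family gene, fell by 0.38 (adjusted p = 0.0359). Yy1 (0.15, adjusted p = 0.179) and Myc (-0.31, adjusted p = 0.116) did not pass the test.

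Among the respiratory chain and ATP synthase genes, 2 had a lower mean in Zip13-KO. Atp5g1, a gene for the c subunit of the ATP synthase, fell by 0.41 (adjusted p = 0.0219), and Cox6a2, the heart and muscle isoform of a cytochrome c oxidase subunit, was at -0.73 without passing the test (adjusted p = 0.179). Both were named after their values were seen.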
